A study of Drosophila melanogaster with 3 samples.

Results

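Of 10 genes of glia and the blood-brain barrier, *moody*, *loco* and *Gs2* carried OdsH-GFP summits in white prepupae of *Drosophila melanogaster*, and the other 7 carried none. The genes were *moody*, *loco*, *Gs2*, *repo*, *gcm*, *gcm2*, *Eaat1*, *Mdr65*, *nrv2* and *Tret1-1*, 10 of the 13945 protein-coding genes on the 6 chromosome arms. A summit, the position of highest signal in a peak, was assigned to a gene when it lay between the annotated gene ends or up to 1000 bp upstream of them, a stretch called the span of the gene here. In this way 6 of the 8700 summits of the deposited reproducible peak set were assigned, 4 to *loco* and 1 each to *moody* and *Gs2*. By the same rule 26.9% of all protein-coding genes had a summit, so the share among the 10 genes was near the background.

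The series holds 1 group of 3 biological replicates of chromatin immunoprecipitation with sequencing. The flies were a transgenic line, OdsH-GFP, that stably expressed the homeodomain protein OdsH with GFP at its C terminus, and the fusion was precipitated with an antibody to GFP. Whole prepupae of both sexes were pooled, the age label reads unknown, and all 3 samples carry the same donor label. No other genotype, stage or tissue was analysed here. The sources used here do not give the promoter that drove the fusion. The reproducible set was obtained by the authors with the irreproducible discovery rate (IDR) procedure on genome build dm6. Its signal values, which are those of the authors' peak caller, lay between 77.5 and 3230 (median 153), and rank 1 is the strongest. A summit marks a site of high signal in the GFP precipitate. Because the chromatin came from whole animals, the cells behind a summit are not known, and whether they were glia was not tested.

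Insect glia form the blood-brain barrier as an outer sheet. Its subperineurial cells are sealed by septate junctions, and Moody, a G protein-coupled receptor of these cells, keeps the seal tight through heterotrimeric G proteins and the regulator Loco. Glial fate is set by the transcription factor Gcm and its paralog Gcm2, which switch on *repo*, a paired-class homeobox gene like *OdsH* itself. Mature glia take up glutamate through Eaat1, convert it to glutamine with glutamine synthetase, and move sugars and foreign compounds with transporters such as Tret1-1 and Mdr65.

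The DNA under the summits is shown first because the 6 windows differ in composition and in the words they hold. Each window is 101 bp centred on the summit, written 5′ to 3′ on the strand of the gene, from the RefSeq release 6 sequence, which is the dm6 assembly. Capitals mark the homeodomain words TAATTA and TAATTG, the second of which reads CAATTA on the other strand. The *loco* summits are numbered 1 to 4 in the direction of transcription. The windows lie at chrX:2050224-2050324 (minus strand) for *moody*, at chr3R:22628080-22628180, chr3R:22627090-22627190, chr3R:22625896-22625996 and chr3R:22624917-22625017 (all minus strand) for *loco* summits 1, 2, 3 and 4, and at chrX:11423321-11423421 (plus strand) for *Gs2*. None overlaps an annotated UTR.
moody: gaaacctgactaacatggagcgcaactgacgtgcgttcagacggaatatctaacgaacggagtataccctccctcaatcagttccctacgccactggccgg
loco summit 1: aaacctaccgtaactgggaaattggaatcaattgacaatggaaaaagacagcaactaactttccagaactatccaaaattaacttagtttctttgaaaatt
loco summit 2: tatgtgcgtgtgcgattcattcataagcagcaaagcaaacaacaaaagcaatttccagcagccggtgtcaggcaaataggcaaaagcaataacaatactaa
loco summit 3: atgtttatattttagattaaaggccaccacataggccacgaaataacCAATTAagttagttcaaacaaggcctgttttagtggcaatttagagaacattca
loco summit 4: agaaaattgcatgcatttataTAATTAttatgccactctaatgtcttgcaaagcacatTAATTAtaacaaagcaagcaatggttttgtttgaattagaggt
Gs2: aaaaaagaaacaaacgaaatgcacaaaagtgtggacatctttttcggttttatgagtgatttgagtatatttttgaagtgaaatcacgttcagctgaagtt

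The barrier receptor gene *moody* (FBgn0025631, X, 2044292 to 2050120, minus strand) had the strongest summit of the 10 genes. Its peak ran from 2050143 to 2050435, with the summit at 2050274, 154 bp upstream of the outer of its 2 annotated start sites. The signal value was 446 and the rank 902, within the strongest 10.4% of the IDR set. Replicates 1, 2 and 3 placed the same peak at ranks 951, 935 and 767 of their own lists, with signal values of 116, 189 and 154. The ranks were close in all 3 replicates, and replicate 3 ranked it highest. The whole of *moody* lies inside an intron of *CG4313* (X, 2041868 to 2055414, plus strand), so the summit is upstream of *moody* and intronic to *CG4313*, whose nearest start site is 2410 bp away. A weaker IDR summit also lay inside *CG4313*, 1844 bp past the 3′ end of *moody* and 137 bp upstream of the alpha-actinin gene *Actn* (signal value 126, rank 5399). No exon of any gene overlapped the *moody* peak.

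The gene *loco* (FBgn0020278, 3R, 22619968 to 22639387, minus strand), encoding the regulator of G protein signalling that acts with Moody, held 4 summits in 3163 bp. All were intronic, and all lay nearer to the innermost of the 4 annotated *loco* start sites, at 22626634, than to any other start site of a protein-coding gene. Summits 1 and 2 were 1496 and 506 bp upstream of it, and summits 3 and 4 were 688 and 1667 bp downstream. Successive summits were 990, 1194 and 979 bp apart. The noncoding RNA genes *lncRNA:CR43475* (22628797 to 22629299) and *asRNA:CR43474* (22629575 to 22630671) overlap *loco* on the plus strand. Their annotated starts are nearer to summit 1 than the innermost *loco* start site is. The 3 outer *loco* start sites had no IDR summit within 1000 bp. Weaker rows of the pooled list, outside the IDR set, lay 583 bp downstream of one (rank 10847) and 442 bp upstream of another (rank 16447). The former ranked 12620, 14347 and 10515 in replicates 1, 2 and 3. The latter overlapped a row of replicate 2 only.

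Summit 4 of *loco*, at position 22624967, was the strongest of them, with a signal value of 426 and rank 975. It ranked 1051, 832 and 1304 in replicates 1, 2 and 3. Summit 1, at 22628130, followed with a signal value of 231 and rank 2530, and ranked 2227, 2941 and 3245 in the replicates. Both outer summits were thus stronger than the inner pair in the IDR set and in every replicate. Summit 3, at 22625946, had a signal value of 168 and rank 3869, and its ranks in replicates 1, 2 and 3 were 3365, 3805 and 6430. Summit 2, at 22627140, had a signal value of 131, below the median of the IDR set, with rank 5137 and ranks of 5484, 3741 and 9063 in replicates 1, 2 and 3. Replicate 2 placed summit 2 slightly ahead of summit 3, while replicates 1 and 3 placed it behind. Genes with 4 or more IDR summits made up 3.71% of protein-coding genes of all lengths. At 19420 bp, *loco* is in the longest of 5 equal classes of gene length. The share with 4 or more summits among genes of its length was not computed.

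*Gs2* (FBgn0001145, X, 11422832 to 11430197, plus strand) encodes a glutamine synthetase, the enzyme that turns glutamate into glutamine. Its peak ran from 11423266 to 11423509, and the summit at 11423371 lay in an intron of *Gs2*, 539 bp downstream of the outer of 2 start sites and 586 bp upstream of the inner one. The signal value was 282 and the rank 1936, and the peak ranked 2029, 1802 and 2914 in replicates 1, 2 and 3. A weaker row of the pooled list, 474 bp upstream of the outer start site, ranked 10648 (signal value 61.3) and lay outside the IDR set. That row ranked 11703, 11654 and 12405 in the replicates, a narrow range.

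**Figure D1:**
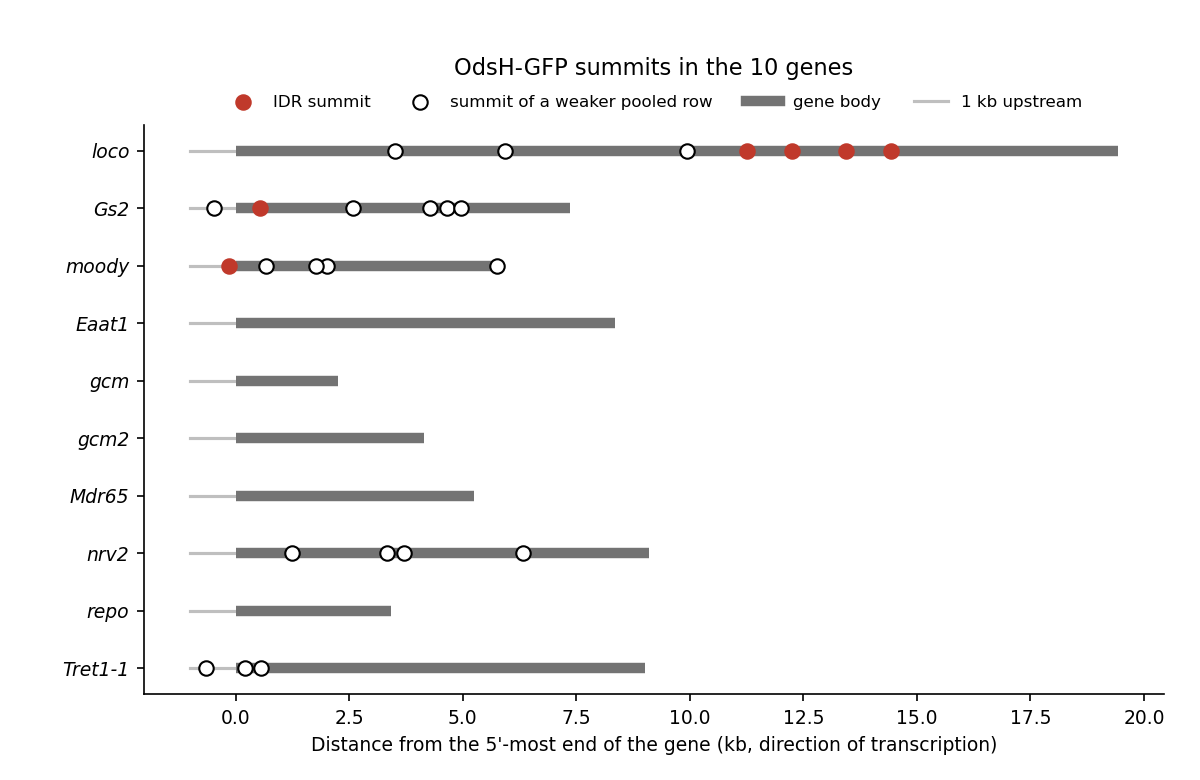
The 10 genes drawn to scale in the direction of transcription, with distance from the 5′ end of each gene in kb on the horizontal axis. Filled circles are the 6 IDR summits and open circles are summits of weaker pooled rows. The 4 *loco* summits sit together within the gene, the *moody* and *Gs2* summits sit at the 5′ end, and 5 genes have no circle of either kind.

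Support by a replicate means here an overlap of 1 bp or more with any of that replicate's 8700 strongest rows. All 3 replicates supported 5 of the 6 summits, against 71.0% of all IDR peaks. These 5 ranked between 902 and 3869 in the IDR set, whereas the 71.0% also covers its weakest peaks, so the 2 shares are not matched for strength. The exception was *loco* summit 2, which replicate 3 ranked just past 8700. Support is partly built in, since the IDR set was made from these same replicates and, per the deposited file lists, each replicate was called against the same control alignment. The deposited −log10 q-value was 4.19 at all 6 peaks, the highest value in the set, which 90.0% of IDR peaks share.

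**Figure D2:**
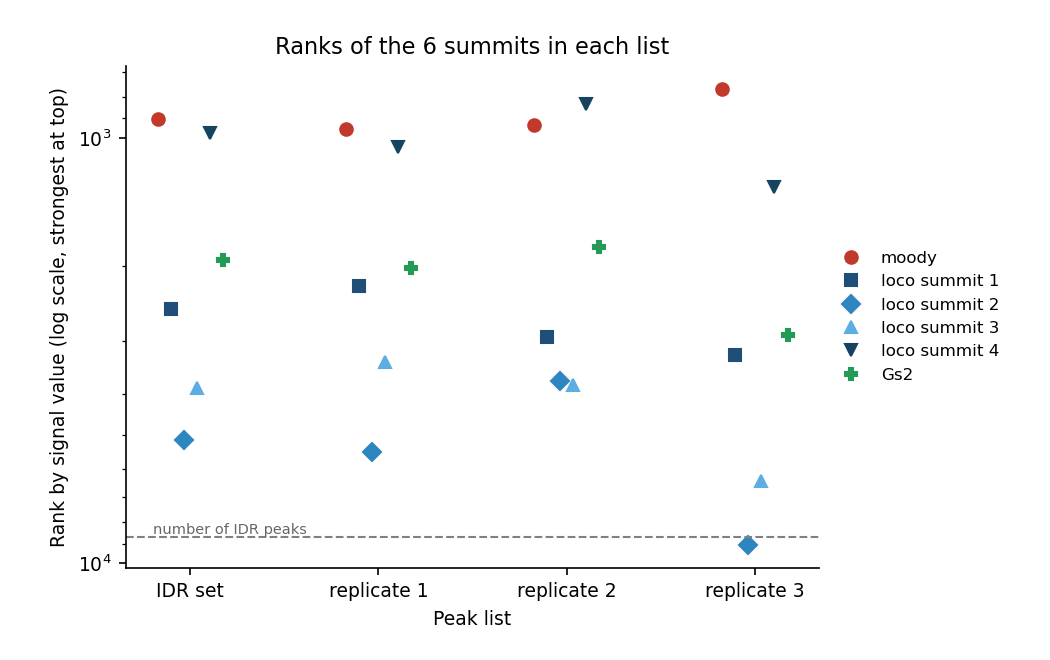
Rank of each of the 6 peaks by signal value (log scale, strongest at the top) in the IDR set and in the lists of replicates 1, 2 and 3. Points for *moody* and *loco* summit 4 lie between ranks 767 and 1304 in every list, and *loco* summit 2 in replicate 3, at rank 9063, is the only point below the dashed line at 8700.

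The windows differed in base composition. GC content was 53.5% at *moody*, and 31.7, 40.6, 33.7 and 28.7% at *loco* summits 1, 2, 3 and 4, and 31.7% at *Gs2*. Over all IDR summits the median was 30.7%, with a 10th percentile of 22.8% and a 90th percentile of 42.6%. The *moody* window stood apart: 98.1% of IDR windows had less GC. It also had more GC than the windows 500 bp to either side of it (45.5%), whereas the 5 other windows all had less than their own flanks, which lay between 43.6 and 47.5% (in a window of 51 bp, *loco* summit 2 had 47.1%).

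Homeodomain words occurred in 2 of the 6 windows. The share of all IDR windows with either word was not computed, so shares are given for each word alone. TAATTA, the core word of many homeodomain sites, was present in 2 copies at *loco* summit 4, the strongest *loco* peak, and in no other window, against 10.8% of all IDR windows with at least 1 copy. TAATTG was present in 1 copy at *loco* summit 3, against 11.5% of IDR windows. The *moody* and *Gs2* windows held neither word, but in windows of 201 bp *Gs2* had 2 copies of TAATTG (19.8% of IDR windows of that size held it). No window held the paired-class dimer site, TAAT followed after 3 bases by ATTA (1.75% of IDR windows), the octamers ATGCGGGT or ATACGGGT bound by Gcm (0.0805%), the core promoter words TATCGATA (0.701%) and GGTCACAC (0.494%) or the GATA word AGATAAG (1.67%). All words were searched on both strands, and a match describes the letters only.

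No IDR summit fell in the span of the fate genes. *repo* (FBgn0011701, 3R, 18236192 to 18239602), *gcm* (FBgn0014179, 2L, 9579498 to 9581745) and *gcm2* (FBgn0019809, 2L, 9608562 to 9612706) also had no row among the 30000 of the pooled list, which reaches well below the IDR threshold. In the full lists of the replicates, *repo* had 1 row, at rank 21667 of replicate 1, *gcm* had rows at rank 24419 of replicate 1 and 24654 of replicate 3, and *gcm2* had none. The nearest IDR summits lay outside the 3 genes, at neighbours. That nearest *repo* was 4240 bp past its 3′ end in an intron of *14-3-3epsilon* (rank 5168), that nearest *gcm* was 3135 bp past its 3′ end in the 5′ UTR of *Mtpalpha*, a gene of mitochondrial fatty acid oxidation (rank 3667), and that nearest *gcm2* was 4081 bp past its 3′ end, 49 bp upstream of *GlcAT-S* (rank 7180).

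The paralogs *gcm* and *gcm2* are transcribed away from each other and separated by 26816 bp, a stretch that also holds a start site of *CG4382*. That stretch held 1 IDR summit, at 2L position 9598522, intergenic, 16777 bp upstream of *gcm* and 10040 bp upstream of *gcm2*. It was weak, with a signal value of 89.5 and rank 7636, and it ranked 8826, 8914 and 7233 in replicates 1, 2 and 3. Only replicate 3 therefore held it among its 8700 strongest rows, and *CG4382*, 2350 bp away, had the nearest start site.

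Among the transporters, *Eaat1* (FBgn0026439, 2L, 9333567 to 9341925), encoding the glial glutamate transporter, was the gene farthest from any summit. It had no pooled row, and its nearest IDR summit was 45513 bp past its 3′ end, at the start of the aldehyde dehydrogenase gene *Aldh* (signal value 159, rank 4148). Only 4.68% of protein-coding genes lay as far or farther from an IDR summit. The best *Eaat1* rows of the replicates ranked 12338 in replicate 1 and 18905 in replicate 3, and replicate 2 had none. *Mdr65* (FBgn0004513, 3L, 6240500 to 6245746), encoding an ABC transporter that exports drugs at the barrier, had no row in the pooled list or in any replicate. An IDR summit 4002 bp upstream of it, in an intron of *Best2* (signal value 93.8, rank 7310), had the *Mdr65* start site as its nearest.

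*Tret1-1* and *nrv2* had pooled rows only below the IDR set. *Tret1-1* (FBgn0050035, 2R, 11665768 to 11674782), encoding a trehalose transporter, lies inside *Roc2* and had 3 pooled rows below the IDR set, the best at rank 15811, 660 bp upstream of its outer start site. That row ranked 26262, 13404 and 25989 in replicates 1, 2 and 3. The best rows in the *Tret1-1* span ranked 17516, 8896 and 17902 in their full lists. The nearest IDR summit was 4085 bp upstream of *Tret1-1*, also in an intron of *Roc2* (signal value 335, rank 1443). *nrv2* (FBgn0015777, 2L, 6789770 to 6798862) encodes a beta subunit of the sodium pump that is needed for septate junctions, and had 4 pooled rows, the best at rank 13321 (signal value 47.1) in an intron 580 bp downstream of a start site. Replicate 3 placed that row at rank 7418 and replicate 2 at 14433, while replicate 1 had no row there. Another *nrv2* row, 568 bp upstream of a start site, had pooled rank 16571. It ranked 8730, 12652 and 13456 in replicates 1, 2 and 3. The nearest IDR summit was 1600 bp past the 3′ end of *nrv2* and 1309 bp upstream of its neighbour *nrv1*, which encodes another beta subunit of the pump (signal value 211, rank 2887).

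**Figure D3:**
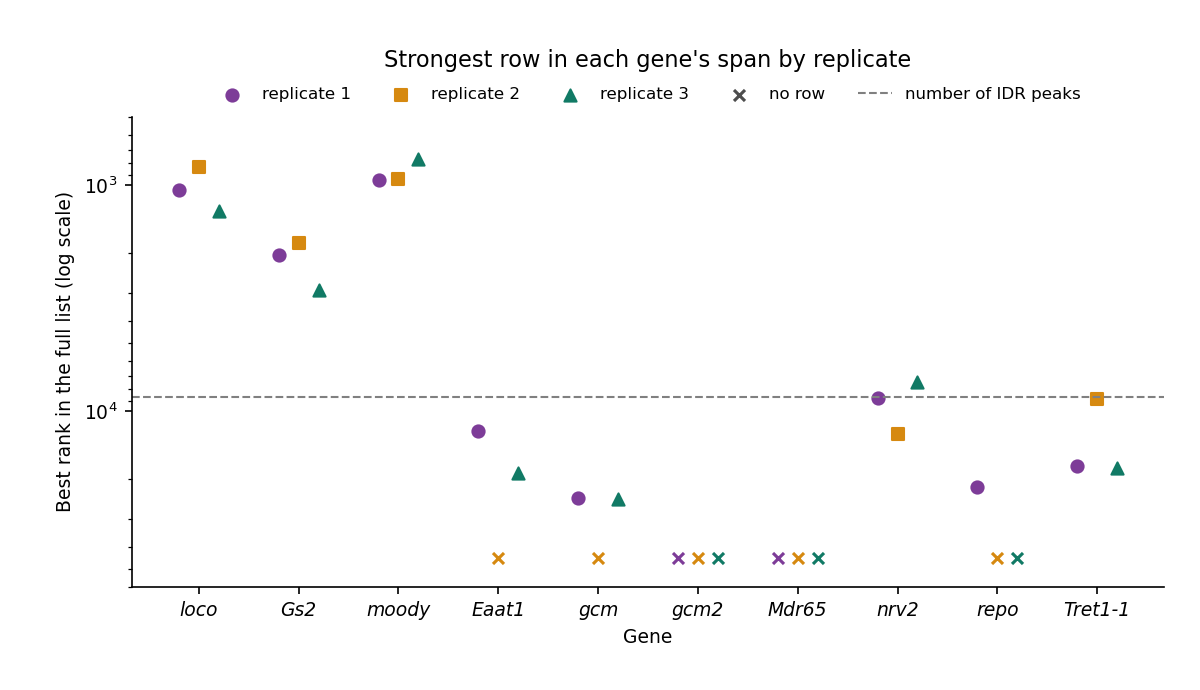
Best rank in the span of each gene (log scale, strongest at the top) in the full list of each replicate. Crosses, drawn below the end of the lists, mark replicates with no row in the span. *loco*, *Gs2* and *moody* lie between ranks 767 and 2914 in all 3 replicates, and the next best, *nrv2* in replicate 3, is at 7418.

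Read against all genes, 3 of 10 is a share near the background. An IDR summit lay in the span of 26.9% of protein-coding genes. With 5000 bp of upstream sequence in place of 1000 bp, *Mdr65* and *Tret1-1* joined the count, which became 5 of 10, against 39.0% of all genes by that span. Without upstream sequence the count was 2 of 10, *moody* being lost, against 14.8%. Within 1000 bp of a start site, *moody*, *loco* and *Gs2* again counted, 3 of 10, against 23.0% of all genes. With an IDR summit supported by all 3 replicates there were 3 of 10, against 21.6%. By the 8700 strongest rows of each replicate alone, 3, 3 and 4 of the genes had a summit in replicates 1, 2 and 3, a mean of 3.33 ± 0.577 (SD, n = 3), against 30.7, 29.4 and 28.8% of all genes. The additional gene in replicate 3 was *nrv2*. Any pooled row at all was found in the span of 5 of the 10 genes, against 41.7% of all genes.

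Over all protein-coding genes, the share with an IDR summit increased with gene length, and most of the 10 genes are long. Why the share increased was not tested. When protein-coding genes were divided by length into 5 classes of equal size, 5 of the 10 fell in the longest class, 4 in the next and 1, *gcm*, in the middle class. In the longest class 2 of 5 had a summit, *loco* and *Gs2*, against 57.9% of all genes of that class. In the next class 1 of 4 did, *moody*, against 30.9%, and the middle class had 0 of 1 against 19.3%. No test was made, because genes are not replicates and the genes were chosen with earlier results known.

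**Figure D4:**
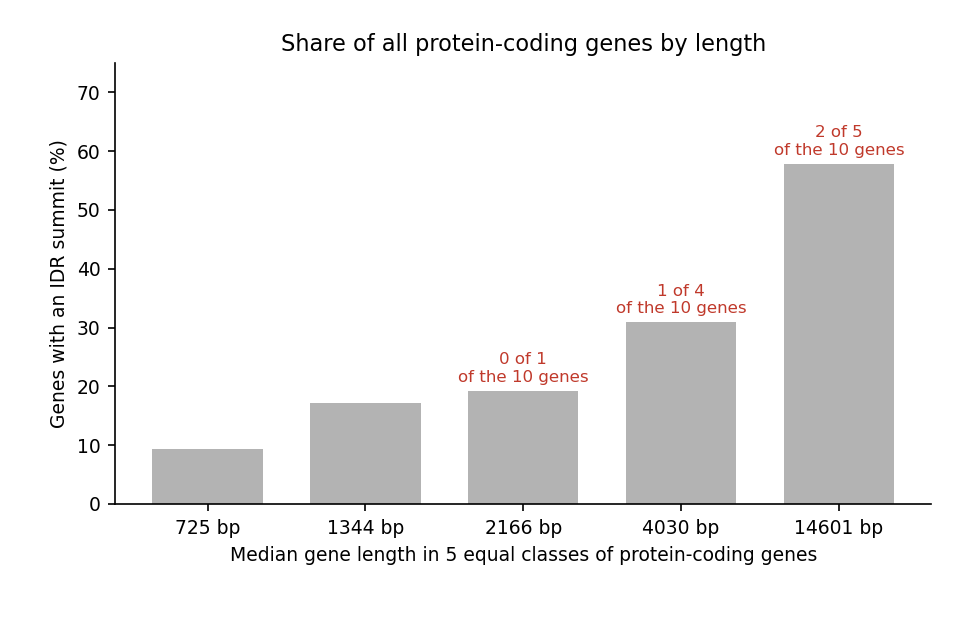
Share of protein-coding genes with an IDR summit in each of 5 classes of gene length (grey bars, percent, labelled by median length in bp), with the count for the 10 genes written above the bars. The share over all genes increases from 9.32% in the shortest class to 57.9% in the longest.

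Other genes of glia and of the barrier were counted in 6 lists by the same span. Leaving the 10 genes out, 35 of 61 had an IDR summit (57.4%, against 26.9% of all genes). Of these 61 genes 38 were in the longest length class, where 28 had a summit (73.7%, against 57.9% of all genes of that class). The lists overlap in part and were chosen with earlier results of these data known. These shares therefore cannot measure an enrichment, and no test was made. Genes of the longest class ran from 6458 to 1965857 bp, with a median of 14601 bp, so length was matched only roughly.

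All 7 other regulators of glial fate had a summit, against 26.9% of all genes. They were *N*, *pnt*, *Egfr*, *ttk*, *pros*, *htl* and *dac*, with a median gene length of 37352 bp. The longest length class, of which 57.9% had a summit, has a median of only 14601 bp. A share for genes as long as these was not computed. The receptor gene *N* (Notch) had 3 summits, the strongest with a signal value of 583 (rank 520), in an intron 27658 bp from the nearest start site of *N* and 10612 bp from that of *CG18508*. The ETS factor gene *pnt* and the EGF receptor gene *Egfr* had 11 summits each, with strongest signal values of 538 (rank 623) and 457 (rank 868), both intronic. These 3 strongest summits were supported by all 3 replicates, and all lay more than 1000 bp from a start site of their gene.

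In Moody signalling, the alpha subunit genes *Galphao* (signal value 300, rank 1756, 307 bp from a start site) and *Galphai* (282, rank 1934) and the kinase gene *Pka-C1* (289, rank 1866) had summits, and the beta and gamma subunit genes *Gbeta13F* and *Ggamma1* had none. Each of these values is for the strongest summit of its gene, and all 3 replicates supported it. Thus 3 of 5 genes had a summit (60.0%, against 26.9% of all genes and 57.9% of the longest class).

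Of 23 other septate junction genes, 12 had a summit (52.2%, against 26.9% of all genes and 57.9% of the longest class). The strongest was at *nrv1* (signal value 664, rank 389), 243 bp upstream of its start site, followed by the polarity gene *scrib* (470, rank 820) and *Mcr* (418, rank 1008), which encodes a complement-related junction protein. *nrv1* ranked 320, 500 and 273 in replicates 1, 2 and 3, so that the neighbouring sodium pump genes differed, with a strong promoter summit at *nrv1* and no IDR summit in *nrv2*. The other 9 with a summit were *Atpalpha*, which encodes the alpha subunit of the same pump, *Nrg*, *vari*, *pck*, *dlg1*, *Fas3*, *Gli*, *M6* and *bark*. The 11 without one were *Nrx-IV*, *Cont*, *cora*, *sinu*, *kune*, *Lac*, *Tsf2*, *bou*, *cold*, *crok* and *l(2)gl*. The *Mcr* peak ranked 988 and 1114 in replicates 1 and 2 and overlapped no row of replicate 3.

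Of 15 other transporters, 7 had a summit (46.7%, against 26.9% of all genes and 57.9% of the longest class). They were led by *bdg*, a member of the neurotransmitter transporter family (signal value 556, rank 586), *MFS3* (314, rank 1620) and the amino acid transporter gene *mnd* (273, rank 2033). The *bdg* peak likewise overlapped no row of replicate 3. *Mdr49* and *Mdr50*, paralogs of *Mdr65*, and *Tret1-2*, the paralog of *Tret1-1*, had none, nor did the glutamate transporter gene *Eaat2* and the GABA transporter gene *Gat*. In glutamate metabolism, *Gdh* (108, rank 6364) and *Gs1* (82.5, rank 8227), the other glutamine synthetase gene, had weak summits and *Gad1* had none. Thus 2 of 3 other genes of this list had a summit (66.7%, against 26.9% of all genes and 57.9% of the longest class). The *Gs1* summit was supported by 1 replicate, against 3 for *Gs2*. Among 11 other glial subtype markers 6 had a summit (54.5%, beside the same 2 shares). They were led by *apt* (381, rank 1184), the junction gene *Gli* (360, rank 1298, 352 bp downstream of a start site) and the FGF receptor gene *htl* (255, rank 2235). The markers *alrm*, *drpr*, *vkg* and *GLaz* had none.

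**Figure D5:**
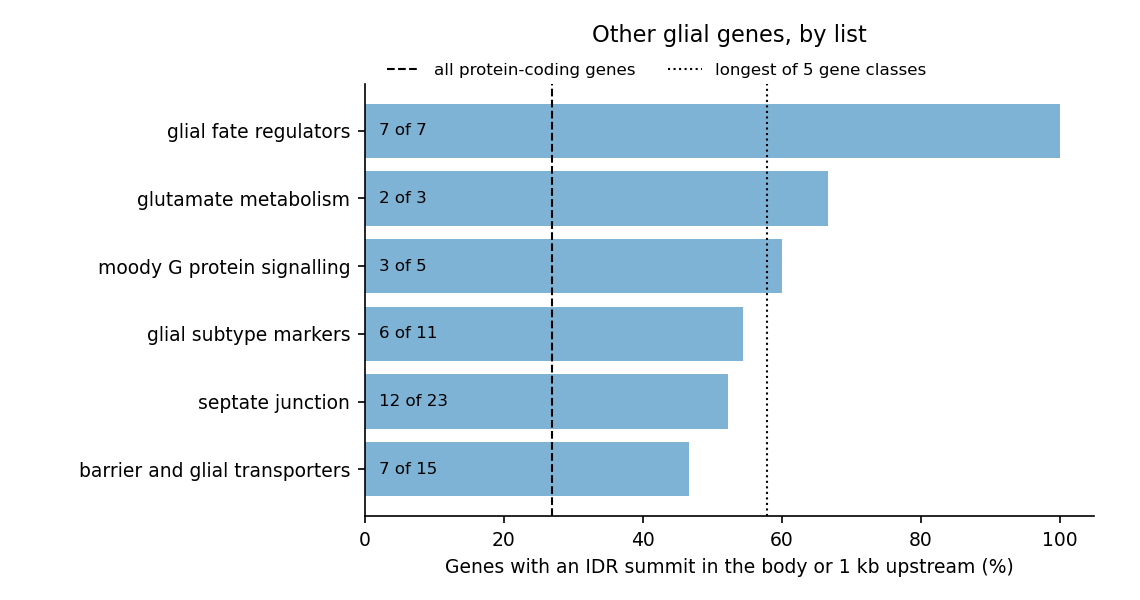
Share of the other glial and barrier genes with an IDR summit in their span, by list, in percent, with counts inside the bars. The dashed line marks all protein-coding genes (26.9%) and the dotted line the longest length class (57.9%). Shares ran from 46.7% of transporters to 100% of the fate regulators.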

How the data were processed

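Peak lists of 3 ChIP-seq replicates, of their pool (30000 rows each) and of the IDR set (8700 rows) on dm6 were used. Per the labels, chromatin was sonicated, with fragments of 200 to 800 bp. The sources used here name no aligner, peak caller or version. The authors' signal value ranked peaks within a list only, the deposited −log10 q-value was not used to rank, and the deposited offset gave each summit. No read counts were used, so the depth is unknown. Lists on dm3 were not used here.

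Genes and start sites came from Ensembl release 115 (BDGP release 6, the dm6 assembly), without transposable elements. Positions are 1-based. All 10 gene symbols matched. Of 72 symbols in the lists, 71 matched, older symbols included. The 10 genes and the 6 lists were chosen with earlier results of these data known. Named genes were the 10, the genes nearest their summits, and up to 3 others per list with the strongest summit; genes named without values were added from the lists. Python 3.11.15 and pandas 2.3.3 were used. The counting of summits and of overlaps was checked on simulated peaks. Nothing says that replicates came from separate crosses, so their spread may be technical.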

Additional observations from a re-analysis of the deposited data

How the results depend on the processing

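Of 44 values computed under other settings, 39 stayed near the value reported. Near means within 1.5 times for counts, within 1 SD over the replicates for ranks, and within 1 SD over the 6 windows for GC content. These limits are wide, since 2 genes in place of 3 passed and the windows ran from 28.7 to 53.5% GC. The 39 is therefore not a measure of robustness. With 5000 bp upstream in place of 1000 bp, 5 of the 10 genes had an IDR summit, the added genes being *Mdr65* and *Tret1-1*, against 39.0% of all protein-coding genes, and the spans of the 10 genes held 9 summits. Without upstream sequence the count was 2 of 10, against 14.8% of all genes, since the *moody* summit lies outside the gene. Within 1000 bp of a start site, 1 other gene of glutamate metabolism had a summit, against 2 by the span. Each replicate left out in turn gave 3 genes supported by the remaining replicates, and means of 3 to 3.50 genes by the replicates' own lists. The ranks in replicate 3 of *moody* (767), *loco* (1304) and *Gs2* (2914) differed by more than 1 SD from those in the IDR set. No paired analysis was possible because there is 1 group.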

Other observations

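Of the strongest 1740 IDR peaks, 2, 6 and 11 overlapped no row at all in the full lists of replicates 1, 2 and 3. Glial or barrier genes held at least a pair of the 11 missing from replicate 3, and these were noticed after their values were seen. The share of the strongest 1740 peaks that lies in such genes was not computed. Whether their peaks were missing more often than others therefore cannot be read from this. The peak in *bdg* had rank 586 in the IDR set and ranks 767 and 537 in replicates 1 and 2. The peak in *Mcr* had rank 1008 in the IDR set and ranks 988 and 1114 in replicates 1 and 2. Neither overlapped a row of replicate 3.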
